A study of Mus musculus with 27 samples.

Results

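The genes described here are Rax, Six3, Six6, Lhx2 and Fzd5, which mark the eye field and the progenitors of the retina. They are 5 of the 55487 genes in a table of RNA counts from the mouse optic stalk at embryonic day 14 (E14), and they were picked by name. Laser-capture microdissection was used to cut a dorsal piece, a ventral piece and a piece rich in the axons of retinal ganglion cells from sections of each embryo. The 27 libraries came from 4 control embryos and 5 Smarcc1-DCT-cKO embryos, which makes 6 groups of region by genotype. The mutants carried Smarcc1 loxP/loxP with Dct-Cre, and the methods also name the Z/EG reporter. Smarcc1 encodes a subunit of the SWI/SNF chromatin remodelling complexes. Dct-Cre is driven from the dopachrome tautomerase gene and acts in the pigmented lineage of the eye and in the optic stalk. By antibody labelling the authors report Smarcc1 protein as lost across the whole stalk of mutants by E14. The pieces also held markers of other cell types, so not every cell of a piece need have lost the gene. The counts given here are of RNA and do not measure protein. The labels call the other embryos only control, and the methods describe controls as littermates without Dct-Cre.

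The eye field is the patch of the anterior neural plate from which both eyes form. Its homeobox genes act together and keep being used in the retina, and they are known to be turned down or kept in different measure as the optic vesicle divides into neural retina, pigment epithelium and stalk. The stalk becomes the astrocytes of the optic nerve. Rax is needed for an eye to form at all. Six3 and Six6 are paralogues, homologous to the fly gene sine oculis. Lhx2 is a LIM-homeodomain factor needed for the optic vesicle to become an optic cup. Fzd5 is a frizzled receptor for Wnt ligands that is found in the early eye field and in retinal progenitors.

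Levels are given as CPM, a gene's count scaled by the total count of its library. The libraries held 10.9 to 33.98 M counts, so that 1 count was worth 0.0294 to 0.0917 CPM. The share of counts from mitochondrial genes was 7.49% to 15.4% in axon pieces and 3.72% to 7.63% in stalk pieces. Smarcc1 itself stood at 75.9 to 289 CPM in dorsal controls against 2.26 to 107 CPM in dorsal mutants, and the dorsal libraries of mutants 1 and 2, at 94.9 and 107 CPM, overlapped the controls. In the ventral piece (75.7 to 198 against 14.7 to 64.4 CPM) and the axon piece (50.1 to 242 against 1.86 to 44.9 CPM) the genotypes did not overlap. The dorsal and ventral libraries of mutant 2 stood apart from all others in Atoh7, which marks cells about to become ganglion cells: it stood there at 405 and 212 CPM, against at most 42.96 CPM in any other mutant library and 0 in every control. The dorsal library of control 3 held the highest sum of 7 mesenchyme markers, 7534 CPM, and 0.826 CPM of the stalk gene Pax2, against 33.1 to 39.2 CPM in the other dorsal controls. It also had a count for the fewest genes of the dorsal controls, 10881, against 13169 to 16266 in the others. Genes with a count ran from 9225 to 14118 in axon libraries and from 10881 to 16810 in stalk libraries. Whether this bears on low values or values of 0 was not tested.

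Of the 5 genes, 4 were well expressed and Rax was near absent. Averaged over the 27 libraries and divided by exonic length, Six6 stood highest at 25.6 CPM per kb, followed by Lhx2 at 19.2, Six3 at 10.9, Fzd5 at 5.85 and Rax at 0.272 CPM per kb. Six3 was counted in 27 of 27 libraries, Six6 and Lhx2 in 26, Fzd5 in 24 and Rax in 10. Values of 0 among the genes other than Rax fell mostly in axon mutants, with 3 of 20 values there, 1 of 16 in dorsal controls, 1 of 16 in axon controls and 0 in the other groups. In bulk pieces such as these, fewer cells of a type and less RNA per cell cannot be told apart. For each gene, groups next to each other in the order of mean CPM had overlapping ranges and means closer than the larger of their SDs.

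**Figure D1:**
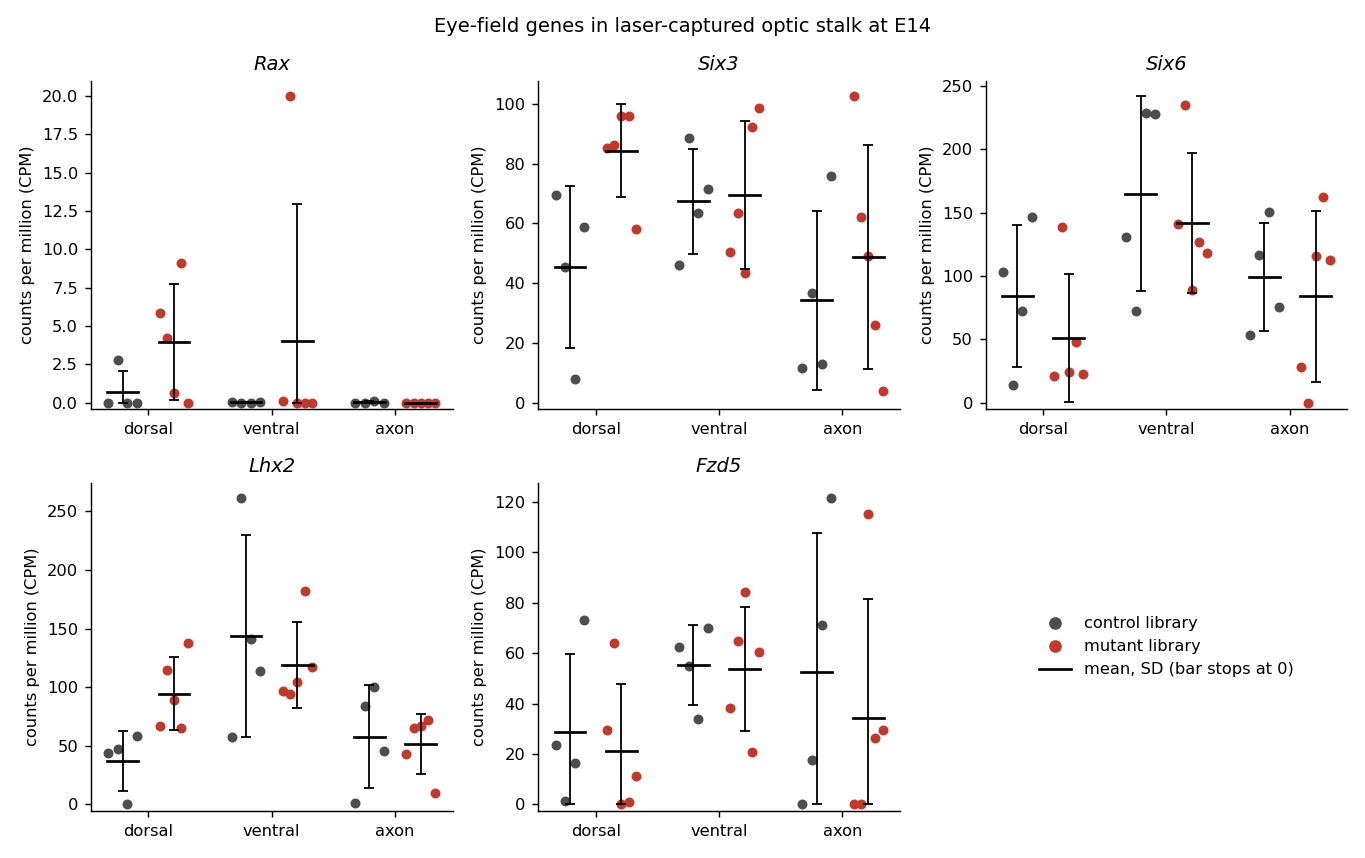
CPM of Rax, Six3, Six6, Lhx2 and Fzd5 in each library, by region on the x axis, with controls in grey and mutants in red; lines are means and bars SD, stopping at 0. The 5 dorsal mutants lie above the 4 dorsal controls for Lhx2, and Rax is at or near 0 outside the dorsal piece but for 1 ventral mutant at 19.98 CPM.

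Six3 (ENSMUSG00000038805.10), on chromosome 17 at 85613608 to 85629302 (plus strand, mm10), keeps Wnt activity low in the anterior brain and eye field and acts on retinal progenitors. In dorsal controls 1 to 4 it stood at 69.6, 45.4, 7.79 and 58.7 CPM. In dorsal mutants 1 to 5 it stood at 85.3, 86.3, 95.9, 96.0 and 58.1 CPM. The first 4 of these mutants lay above all controls, and mutant 5 lay among them. In the ventral piece the genotypes were alike in range, with 45.9, 88.5, 63.6 and 71.4 CPM in controls and 50.4, 63.4, 43.3, 92.1 and 98.6 CPM in mutants. In the axon piece Six3 ran from 11.6 to 75.8 CPM in controls and from 4.04 to 103 CPM in mutants. The noncoding gene Six3os1, which is transcribed the other way beside Six3 and shares 106 exonic bases with it, was counted in every library at 15.4 to 408 CPM. In the dorsal piece its ranges overlapped, at 48.1 to 300.1 CPM in controls and 145 to 325 CPM in mutants. The antisense gene Gm28528 shares 168 exonic bases with Six3 and was counted in 9 libraries, at up to 18.1 CPM. Of the exonic bases of Six3, 5.03% are shared with other genes. The Six3 and Lhx2 promoters are shown because these genes had the lowest exact p between genotypes, given further on. The 250 bases before the RefSeq start of Six3 (GRCm38.p6, chr17:85620584-85620833, plus strand) are 48.8% G or C and hold the CCAAT box 3 times on either strand, in capitals as CCAAT or its reverse complement; 33.8% of the 32851 RefSeq promoters of this length hold at least 1.
Six3: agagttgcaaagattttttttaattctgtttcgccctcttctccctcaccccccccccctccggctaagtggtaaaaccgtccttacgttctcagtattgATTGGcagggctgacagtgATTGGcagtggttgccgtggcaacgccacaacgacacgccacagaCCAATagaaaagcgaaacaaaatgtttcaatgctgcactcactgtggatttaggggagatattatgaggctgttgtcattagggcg

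Six6 (ENSMUSG00000021099.6), on chromosome 12 at 72939892 to 72944899 (plus strand), is needed for retinal progenitors to keep dividing. Dorsal controls 1 to 4 had 103, 14.2, 72.3 and 147 CPM, and dorsal mutants 1 to 5 had 20.7, 139, 24.1, 48.0 and 22.6 CPM. Of the dorsal mutants, 4 of 5 lay below 3 of the 4 controls, and mutant 2 was the high one. Ventral controls stood at 131, 72.0, 229 and 227 CPM and ventral mutants at 141, 235, 89.1, 127 and 118 CPM. The ventral values of the genotypes overlapped, with no order between them. Axon controls ran from 53.8 to 150.1 CPM and axon mutants from 0 to 163 CPM. Six6 shares 4.79% of its exonic bases with the gene 4930447C04Rik on the other strand, whose level was 0 to 49.4 CPM.

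Lhx2 (ENSMUSG00000000247.11), on chromosome 2 at 38339281 to 38369733 (plus strand), shares no exonic base with another gene. In dorsal controls it stood at 43.6, 47.5, 0 and 58.1 CPM. In dorsal mutants it stood at 67.0, 115, 89.2, 64.9 and 137 CPM. All 5 mutants lay above all 4 controls; the lowest mutant was mutant 4 and the library at 0 was control 3. Ventral controls stood at 57.7, 261, 142 and 114 CPM and ventral mutants at 97.0, 94.2, 104, 182 and 117 CPM. Both ventral groups reached higher than the dorsal controls did, and the ventral genotypes overlapped. Axon controls stood at 1.56, 84.2, 100.4 and 45.5 CPM and axon mutants at 43.0, 65.0, 66.8, 72.4 and 10.2 CPM. The 250 bases before the first of its RefSeq starts (GRCm38.p6, chr2:38339031-38339280, plus strand) are 72.8% G or C and hold the GC box GGGCGG 4 times, in capitals; 32.7% of RefSeq promoters hold it on either strand. The homeodomain motif TAATTA, held by 4.84% of promoters on either strand, was not among the letters of the Six3, Six6, Lhx2 or Fzd5 promoters; Rax was not in the promoter table.
Lhx2: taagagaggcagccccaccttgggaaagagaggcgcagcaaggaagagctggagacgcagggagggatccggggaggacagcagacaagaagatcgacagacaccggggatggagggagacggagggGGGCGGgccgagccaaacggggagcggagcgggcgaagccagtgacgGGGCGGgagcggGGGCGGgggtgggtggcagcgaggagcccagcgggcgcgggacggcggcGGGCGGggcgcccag

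Fzd5 (ENSMUSG00000045005.9), on chromosome 1 at 64730558 to 64737751 (minus strand), varied widely between libraries of a group. Dorsal controls 1 to 4 had 23.6, 1.49, 16.5 and 73.1 CPM, and dorsal mutants 1 to 5 had 29.4, 64.2, 0.0707, 0.896 and 11.4 CPM. Each dorsal group thus ran from near 0 to the level of the ventral libraries. Ventral libraries were closer together, with controls at 62.6, 54.8, 33.8 and 70.2 CPM and mutants at 38.4, 64.8, 84.2, 20.8 and 60.6 CPM. Axon pieces varied most, at 0, 17.8, 71.3 and 122 CPM in controls and 0, 0, 115, 26.4 and 29.7 CPM in mutants. The 250 bases before its start are 76.4% G or C and hold GGGCGG 9 times on either strand. Of its exonic bases 17.8% also lie in Gm38058 on the other strand, which reached at most 1.80 CPM.

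Rax (ENSMUSG00000024518.4), on chromosome 18 at 65928277 to 65939787 (minus strand), is known as one of the first genes of the eye field. It stood at 0, 2.79, 0 and 0 CPM in dorsal controls 1 to 4. In dorsal mutants 1 to 5 it stood at 5.87, 4.23, 0.636, 9.10 and 0 CPM. So 4 of 5 dorsal mutants held Rax reads against 1 of 4 dorsal controls, and the ranges overlapped. In the ventral piece the controls held at most 1 count each, and the mutants stood at 0.0947, 19.98, 0, 0 and 0 CPM. The single high ventral value was that of mutant 2, the embryo whose stalk libraries also held the most Atoh7; whether this plays a part in the Rax level was not tested. In the axon piece Rax had 2 counts in 1 control and none in the 5 mutants. Rax shares 27.4% of its exonic bases with the antisense gene Raxos1, which had no counts in any library.

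The first comparison asked whether loss of Smarcc1 changed these genes in each piece. In the dorsal piece Lhx2 was higher in mutants, with a mean of 94.6 ± 31.3 CPM (SD, n = 5) against 37.3 ± 25.6 CPM (n = 4). An exact permutation test of log2(CPM + 1) over the sample labels (two-sided) gave p = 0.00794, the smallest it can give, for a mean difference of 2.28. With labels exchanged only within batches the p was 0.025, again the smallest possible. Mutants lay above controls in both batches: in batch A at 67.0, 115 and 89.2 CPM against 43.6 CPM, and in batch B at 64.9 and 137 CPM against 47.5, 0 and 58.1 CPM. Control 3 bore on the size: without it the mean log2 difference was 0.86 (exact p = 0.0357), and the groups still did not overlap. Without mutant 2, whose library held the most Atoh7, the exact p was 0.0286, the smallest for 4 against 4. Of 16145 genes tested in the dorsal piece, 1.31% had all mutants above all controls and 1.61% had all mutants below, against 1 of these 5 genes above and 0 below.

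Six3 was also higher in most dorsal mutants, at 84.3 ± 15.5 CPM (n = 5) in dorsal mutants against 45.4 ± 26.95 CPM (n = 4) in controls. Its mean log2 difference was 1.21 with an exact permutation p of 0.0238, and 0.05 within batches. Without control 3 the difference was 0.53 and the exact p was 0.0893. Leaving out control 2 or any 1 of mutants 1 to 4 also took the exact p past 0.05, to between 0.0536 and 0.0857. Rax (mean log2 difference 1.36, exact permutation p = 0.167), Six6 (-0.73, p = 0.397) and Fzd5 (-0.95, p = 0.556) did not pass 0.05. These are 5 of 14 exact tests between genotypes over the 3 regions, with p-values not adjusted across them; Rax in the axon piece was not tested.

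Across all genes no member was called by edgeR's quasi-likelihood test with batch as a term, at an adjusted p under 0.05 and a log2 fold change past 0.58. In the dorsal piece 2 genes in all were called (0.0124% of 16145) and 864 had an unadjusted p under 0.05. The log2 fold change of Lhx2 was 1.38 ± 1.23 (SE), that of Six3 0.81 ± 0.69, that of Rax 3.68 ± 3.75, that of Six6 -0.97 ± 0.90 and that of Fzd5 -1.40 ± 2.23, each with an adjusted p of 1 in edgeR. Leaving out 1 library moved these fits to between 1.00 and 1.63 for Lhx2, 0.51 and 1.09 for Six3, -1.51 (without mutant 2) and -0.51 (without control 4) for Six6, and -2.29 (without mutant 5) and -0.18 (without control 4) for Fzd5, with no change of sign. The Rax fit was 1.01 without mutant 4, and without control 2 the other controls were at 0, so that no fold is given. Over all alternatives tried, other models and batch terms among them, the fold change ran more widely, from 0.39 to 2.81 for Lhx2. It ran from 0.50 to 1.09 for Six3, -1.962 to -0.51 for Six6 and -2.99 to -0.18 for Fzd5. So the sign of these fits held, but the size of the Lhx2 difference depended on the model. The lowest adjusted p over these alternatives was 0.602 for Lhx2 and 0.750 for Six3. Before adjustment the edgeR p was 0.285 for Lhx2 and 0.263 for Six3, against unadjusted exact permutation p of 0.00794 and 0.0238. So the exact test of Lhx2 and Six3 and the count model differ, though within batches the exact p of Six3 was 0.05.

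**Figure D2:**
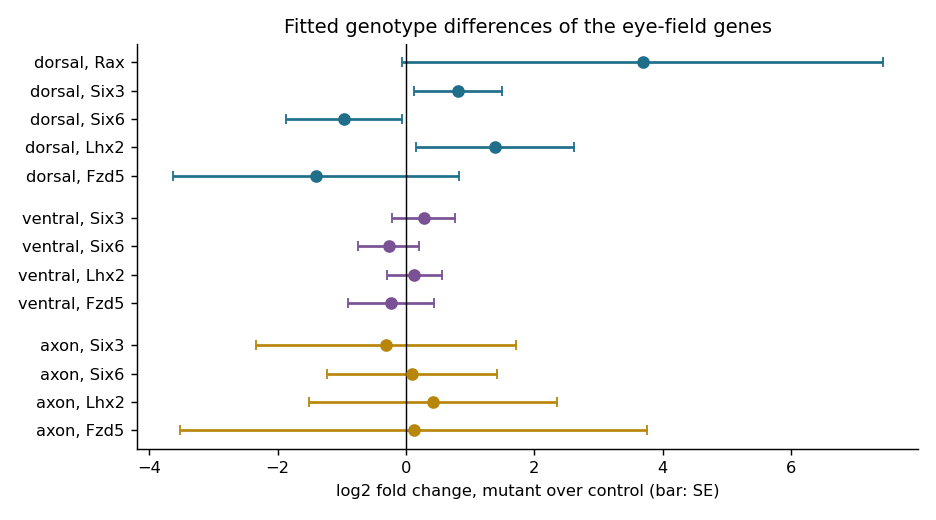
Fitted log2 fold change of mutant over control (x axis, bar: SE) for each gene and region (y axis); Rax is left out where a group holds no more than 3 counts in any library. The bars of dorsal Lhx2 and Six3 lie above 0 at 1 SE, dorsal Six6 lies below 0, and the axon fits are wide.

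Other cell types moved along with genotype in the dorsal piece. The 7 mesenchyme markers summed to 680 to 7534 CPM in dorsal controls and 12.0 to 192 CPM in dorsal mutants, with all 7 counted in both groups. The 8 pigment epithelium markers summed to 39.5 to 4912 CPM in controls and 3143 to 12280 CPM in mutants, with all 8 counted in both groups. The 6 neurogenic markers summed to 0.808 to 37.6 CPM in controls, where Atoh7 and Neurog2 were at 0, and to 113 to 748 CPM in mutants. The 5 endothelial markers summed to 178 to 353 CPM in controls and 43.2 to 169 CPM in mutants, and the 6 optic stalk markers to 647 to 1007 and 289 to 540 CPM. Of these 5 lists the pigment list alone overlapped between genotypes. The sums of the ganglion cell, erythroid, lens and forebrain lists overlapped as well, and the lens genes Cryaa, Crygc and Crygd were at 0 in every group. Among dorsal controls the order of the mesenchyme sums (control 1, 4, 2, 3 from low to high) was the reverse of the order of Six3. It was not the reverse for Lhx2, which stood at 43.6, 58.1, 47.5 and 0 CPM in that order of controls. The part of these markers in the Lhx2 and Six3 values was not tested.

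**Figure D3:**
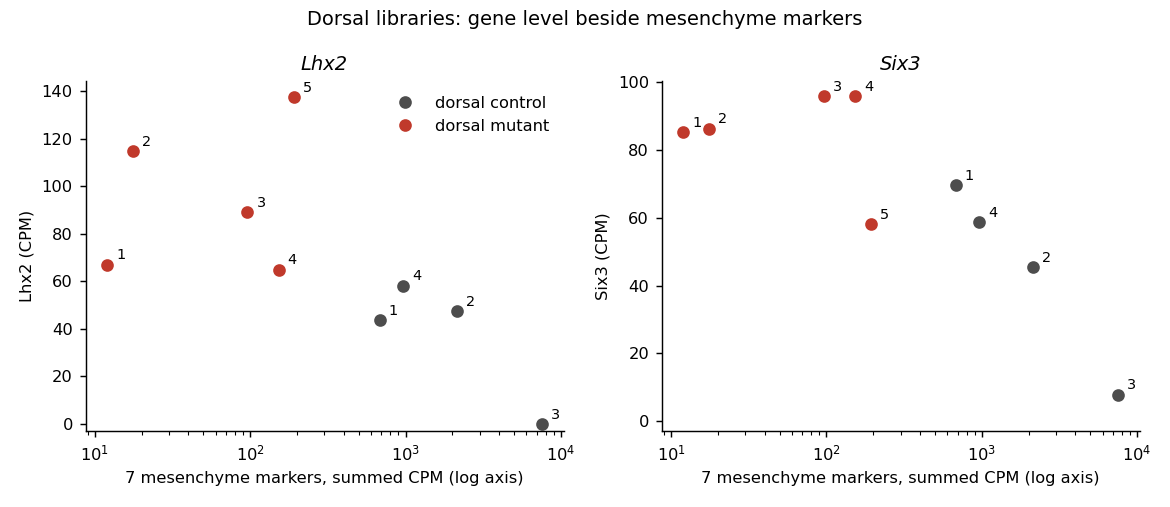
Lhx2 (left) and Six3 (right) in CPM against the summed CPM of 7 mesenchyme markers (log axis) in the 9 dorsal libraries, with replicate numbers. Controls (grey) lie at 680 to 7534 CPM of the markers and mutants (red) at 12.0 to 192 CPM, and control 3 holds the lowest Lhx2 and Six3.

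In the ventral piece no group of any member stood apart, against 0.52% of 16139 genes with all mutants above and 0.706% with all below. Means were 69.6 ± 24.7 CPM in mutants against 67.4 ± 17.7 CPM in controls for Six3 and 142 ± 55.3 against 165 ± 76.9 CPM for Six6. For Lhx2 they were 119 ± 36.6 against 144 ± 85.9 CPM and for Fzd5 53.8 ± 24.6 against 55.3 ± 15.7 CPM (SD, n = 5 and 4). The exact permutation p was 0.778 to 0.976 for these genes and 0.802 for Rax. The edgeR fold changes on the log2 scale were 0.28 ± 0.49 for Six3, -0.27 ± 0.48 for Six6, 0.13 ± 0.42 for Lhx2 and -0.24 ± 0.67 for Fzd5 (SE). The share of genes called was 0% by edgeR, although 515 of them had a p under 0.05 before adjustment, and DESeq2 called 342.

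In the axon piece the genes were spread too widely for a difference to be seen. Mutants against controls stood at 48.8 ± 37.4 against 34.3 ± 29.96 CPM for Six3 and 83.8 ± 67.3 against 99.1 ± 42.8 CPM for Six6. They stood at 51.5 ± 25.7 against 57.9 ± 44.1 CPM for Lhx2 and 34.3 ± 47.4 against 52.7 ± 55.0 CPM for Fzd5 (SD, n = 5 and 4). The exact permutation p lay between 0.563 and 0.754. The edgeR fold changes on the log2 scale were -0.31 ± 2.03 for Six3, 0.09 ± 1.32 for Six6, 0.42 ± 1.93 for Lhx2 and 0.12 ± 3.64 for Fzd5 (SE), and each of these signs turned under another model or without 1 library. The share called by edgeR was again 0% (of 14977 genes), although 531 had a p under 0.05 before adjustment, and DESeq2 called 1238. All mutants lay above all controls for 0.24% of genes and below for 1.04%, and for none of the 5 genes.

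Whether the genotype difference itself differed between pieces was tested by interaction terms over the 27 libraries. These fits held batch but no term for the embryo, so pieces of the same embryo were treated as independent. Between the dorsal and ventral pieces the log2 difference of fold changes was 1.60 ± 1.38 (SE) for Lhx2, 0.89 ± 1.13 for Six3, -0.49 ± 1.37 for Six6 and -0.51 ± 2.43 for Fzd5, each with an edgeR adjusted p of 1. Between the dorsal and axon pieces it was 1.38 ± 1.41 for Lhx2, 0.48 ± 1.17 for Six3, -0.41 ± 1.37 for Six6 and 0.15 ± 2.41 for Fzd5, with edgeR adjusted p from 0.967 to 1. Over the main fit and the alternatives, an embryo block among them, Lhx2 ran from 1.16 to 3.60 against the ventral piece. Against the axon piece it ran from 0.90 to 3.34. No member was called, and edgeR called 0.00612% of genes in the first and 0.0245% in the second of these tests. The higher dorsal Lhx2 and Six3 of mutants were thus not shown to differ from the other pieces. DESeq2 called Rax between the dorsal and axon pieces (adjusted p = 0.00744, against 0.613 in edgeR; DESeq2 called 9.09% of genes), where both axon groups are at or under 3 counts in each library.

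The second comparison asked how the pieces differ, and here Six6 and Fzd5 ran lower dorsally than ventrally. Set within each embryo, Six6 was lower in the dorsal than in the ventral piece in 9 of 9 embryos, by 1.54 ± 0.83 on the log2(CPM + 1) scale (SD, n = 9). An exact test over every sign change of the 9 differences gave p = 0.00391, the smallest it can give, and 0.00781 without any 1 embryo, mutant 2 included. Over all genes 0.667% were lower dorsally in 9 of 9 embryos. Fzd5 was lower dorsally in 8 of 9 embryos, by 2.15 ± 2.22 (exact p = 0.0117); 2.96% of genes were lower in 8 or 9. The exception for Fzd5 was control 4, at 73.1 CPM dorsally and 70.2 CPM ventrally. Mutant 2, counted as lower dorsally, was near equal in both pieces, at 64.2 CPM dorsally and 64.8 CPM ventrally. Lhx2 was lower dorsally in 4 of 4 controls and 3 of 5 mutants (mean difference -1.41 ± 2.32, exact p = 0.0312), and 6 of the 9 left-out embryos took that p past 0.05, to between 0.0547 and 0.0625. Six3 was lower dorsally in 3 of 4 controls and 1 of 5 mutants (exact p = 0.691).

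These tests within embryos were chosen after the values were seen. They take libraries of the same number, genotype and batch as pieces of 1 embryo, which the labels do not state outright. For some embryos the library values matched another number better, as given with the processing. Within a genotype the same test could not reach 0.05: for Six6 it gave 0.125 over the 4 controls and 0.0625 over the 5 mutants, the smallest exact values at those sizes. The 6 stalk markers summed to 289 to 1007 CPM in dorsal and 1040 to 1802 CPM in ventral libraries, and the pigment markers to 39.5 to 12280 and 241 to 3982 CPM. Within embryos the stalk markers were higher dorsally in 0 of 4 controls and 0 of 5 mutants, and the pigment markers in 3 of 4 and 5 of 5. The mesenchyme markers were higher dorsally in 4 of 4 controls and 2 of 5 mutants, the endothelial markers in 4 of 4 and 3 of 5 (178 to 353 against 23.7 to 56.0 CPM in controls), the neurogenic markers in 1 of 4 and 5 of 5, and the erythroid markers in 2 of 4 and 5 of 5. The forebrain markers were higher dorsally in 0 of 4 controls and 2 of 5 mutants. For the ganglion cell and axon markers this was 1 of 4 and 2 of 5, and for the lens markers 3 of 4 and 4 of 5. The part of any of these markers in the Six6 and Fzd5 values was not tested.

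**Figure D4:**
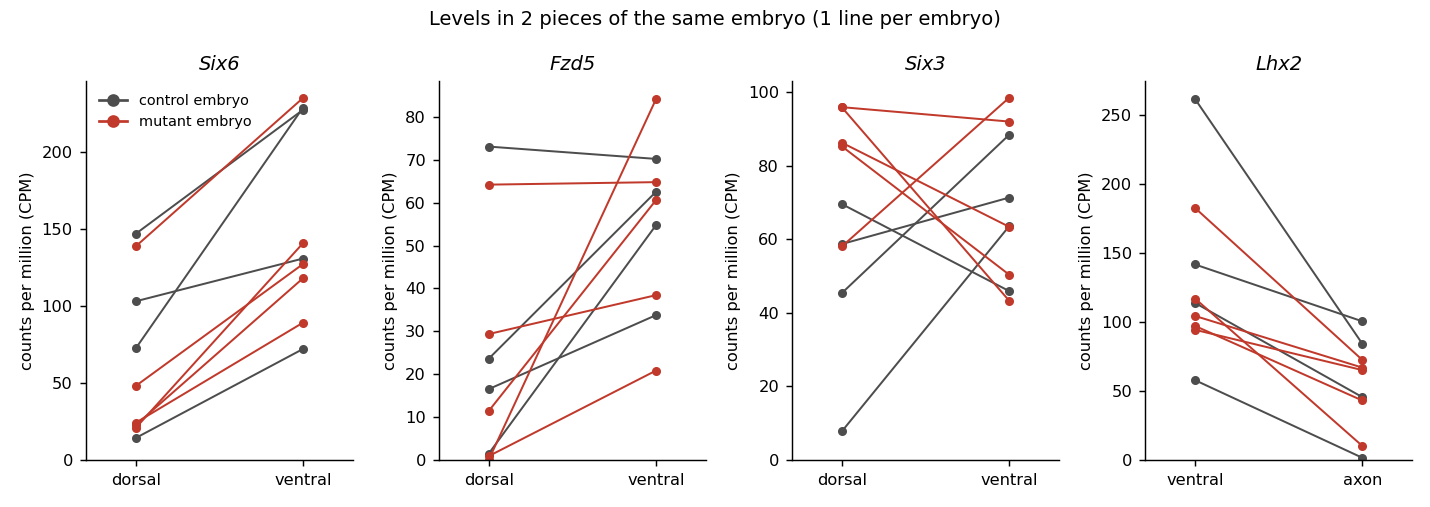
CPM in 2 pieces of each embryo, joined by a line (controls grey, mutants red), for Six6, Fzd5 and Six3 in the dorsal and ventral pieces and Lhx2 in the ventral and axon pieces. All 9 lines rise for Six6 and fall for Lhx2, 8 of 9 rise for Fzd5, and those for Six3 cross.

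The axon piece was set against the stalk in the same way. Lhx2 was higher in the ventral than in the axon piece in 9 of 9 embryos, by 1.66 ± 1.39 on the log2(CPM + 1) scale (SD, exact p = 0.00391, the smallest possible), and 1.24% of genes were higher ventrally in 9 of 9. Six3, Six6 and Fzd5 were higher ventrally in 6, 6 and 5 of 9 embryos (exact p = 0.0664, 0.105 and 0.129). Between the dorsal and axon pieces the exact p was 0.0625 to 0.898 over the 5 genes. These are 14 tests in all, not adjusted across them. The axon libraries also had the higher mitochondrial share and the lower range of genes with a count given above. The ganglion cell and axon markers and the mesenchyme markers were each higher in the axon than in the ventral piece in 4 of 4 controls and 5 of 5 mutants, as were the erythroid markers, and the pigment markers were higher in 0 of 4 and 0 of 5. The forebrain markers were higher in the axon piece in 0 of 4 and 1 of 5, and the lens markers in 0 of 4 and 2 of 5. For the stalk markers this was 3 of 4 and 1 of 5, for the endothelial markers 3 of 4 and 4 of 5. For the neurogenic markers it was 3 of 4 and 2 of 5. The part of any of these markers in the Lhx2 values was not tested.

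Without the pairing, edgeR called none of the 5 genes between pieces. In controls the log2 fold change of dorsal over ventral was -1.99 ± 1.22 (SE) for Lhx2, -0.99 ± 0.65 for Six6, -0.96 ± 1.11 for Fzd5 and -0.59 ± 0.79 for Six3, with edgeR adjusted p of 0.809, 0.870, 1 and 1; 0% of genes were called. In mutants it was -1.44 ± 0.56 for Six6 (unadjusted p = 0.0215, edgeR adjusted p = 0.381), -1.32 ± 1.17 for Fzd5, -0.30 ± 0.34 for Lhx2 and 0.31 ± 0.39 for Six3, and again 0% of genes were called, against 6 with the embryo as a block. In controls the dorsal piece over the axon piece gave -0.87 ± 1.59 for Lhx2, -0.44 ± 0.73 for Six6, 0.23 ± 1.24 for Six3 and -1.07 ± 1.73 for Fzd5, with 0.0692% of genes called (11, or 2 with the block). The ventral piece over the axon piece gave 1.12 ± 0.89 for Lhx2, 0.54 ± 0.51 for Six6, 0.83 ± 0.89 for Six3 and -0.10 ± 1.37 for Fzd5, with 0.0316% of genes called (5, or 0 with the block).

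The 5 genes did not vary as 1 group. Across the 27 libraries the closest pair was Six6 and Fzd5 (Spearman's rho 0.617 of log2(CPM + 1)), followed by Six3 and Lhx2 (0.358) and Six6 and Lhx2 (0.353). By Pearson's r on the same values the first of these pairs stood at 0.70 and Six3 and Lhx2 at 0.71, so the order of the pairs turned with the measure. The paralogues Six3 and Six6 had a rho of -0.143. The genes whose levels followed each member most closely were Zfp623, Btg2 and Prdm16 for Rax (rho 0.829, 0.755 and 0.744), and Slc25a22, Ccdc127 and Tomm6 for Six3 (0.711, 0.708 and 0.682). They were Cog5, Mcm3ap and Ints7 for Six6 (0.714, 0.673 and 0.656), Ticrr, Mki67 and Ormdl1 for Lhx2 (0.793, 0.742 and 0.739), and Dkk3, Pcgf1 and Sh3yl1 for Fzd5 (0.730, 0.714 and 0.693). Mki67 is a marker of dividing cells and Ticrr acts at the start of DNA replication. Rax was at 0 in 17 of the 27 libraries, so its rho values rest on many tied ranks. By Pearson's r most of these genes stood lower, at 0.447 to 0.545 for Rax and 0.389 to 0.865 for the other members. These values describe 27 libraries that share embryos, regions and depth, and they are the top of 16330 genes.

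Companion genes were read beside them. Among 15 other eye-field and retinal progenitor genes, of which 13 were tested dorsally, edgeR called 0, and the median log2 fold change was 1.26 against -0.04 over all genes. Of the 13 fold changes 9 were above 0, and the median was that of Mab21l1, 1.26 ± 2.29 (SE). Medians of lists take in all genes tested, also those with no counts in a group, such as Tbx3 in ventral controls. Pax6, the eye's best-known master regulator, stood at 227 to 396 CPM in dorsal mutants against 39.0 to 106 CPM in controls (log2 fold change 2.27 ± 0.38, edgeR adjusted p = 0.104). Hes1, a target of Notch signalling, stood at 70.6 to 101 CPM against 187 to 325 CPM (-1.52 ± 0.33, edgeR adjusted p = 0.380). DESeq2 called both, and 3.30% of all genes dorsally. They are the 2 of 13 whose dorsal groups did not overlap, 1 in each direction. In the ventral and axon pieces 0 of 13 and 0 of 11 were called by edgeR or DESeq2, with medians of 0.72 and -0.79 against -0.08 and -0.29 over all genes.

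The other companion lists held the other sine oculis paralogues with their Eya, Dach and Tle partners, the partners of LIM factors, and the other frizzled receptors with their co-receptors and dishevelled proteins. In the dorsal piece edgeR called 0 of 15, 0 of 9 and 0 of 14 tested, with median log2 fold changes of -0.87, 0.70 and -0.27. In the ventral piece it called 0 of 15, 0 of 9 and 0 of 14, with medians of -0.19, -0.24 and 0.05, and in the axon piece 0 of 15, 0 of 9 and 0 of 13, with medians of 0.38, -0.79 and -0.17. At an unadjusted p under 0.05 dorsally there were 0, 0 and 2 genes, against 5.35% of all genes, the last being Fzd8 (-2.02 ± 0.82) and Fzd9, which had no counts in dorsal controls. DESeq2 called 1 gene lower in the first list in each piece, Six4 dorsally, Eya4 ventrally and Eya1 in the axon piece, and 1 frizzled gene, Fzd1, lower in the axon piece. Over all genes DESeq2 called 3.30%, 2.12% and 8.27% in these pieces, so that 1 of 15 is no result about the list.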

How the data were processed

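RNA was measured in 27 laser-captured pieces. The authors amplified cDNA by PCR, without molecular identifiers, sequenced 150-bp single-end reads, aligned them with STAR to mm10 and counted them with HTSeq through Seq2Science. The deposited values are whole-number counts per Ensembl gene, not normalized; strand setting and annotation release are not given in the sources used here. Symbols came from GENCODE M21 (55141 of 55487 ids matched). Floors cover counting error only.

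The members and all lists were chosen with earlier results of these data known. Groups came from the sample labels. Libraries summed to 10.9 to 33.98 M counts, and 3 counts, taken as the floor, were 0.0883 to 0.275 CPM. Genes with over 10 counts in at least 3 libraries (16330) were tested with edgeR 4.0.16 (TMM, quasi-likelihood, Benjamini-Hochberg adjustment): genotypes within a region with batch as a term, regions without covariates, interactions over 27 libraries with batch. Batch A held 1 control and 3 mutant embryos and batch B held 3 and 2. Calls needed an adjusted p under 0.05 and a log2 fold change past 0.58. The main test of the methods, DESeq2 (1.42.0), was an alternative, with limma voom (3.58.1), other scalings and filters, batch, replicate block and left-out libraries. No fold change is given where a group held no more than 3 counts in any library, but medians of lists take in such genes. Exact permutation tests (two-sided) used log2(CPM + 1); those within embryos and those without single libraries were added after the data were seen. Libraries of the same number within a genotype were taken as 1 embryo. Their deviations from group means correlated at 0.0531 to 0.115 (dorsal and ventral controls) and 0.0102 to 0.108 (mutants). For ventral and axon pieces this was -0.00293 to 0.0718 in controls and -0.00184 to 0.0512 in mutants. The dorsal libraries of mutants 1 and 3 correlated more with the ventral library of another number (0.0201 and 0.0282) than with their own. The ventral libraries of controls 1 and 3 and mutants 1 and 3 did so with the axon libraries. The other embryos did not. Fits of the dorsal genotype comparison alone were also run on simulated counts, without a batch effect and with changes put only into well expressed genes. No result given here rests on that run. The genes named by rule are the 5 members, Smarcc1, genes overlapping a member or starting within 5 kb of one, and the 3 genes most like each member by Spearman's rho over 27 libraries. Pax6, Hes1 and the other companions named were chosen after their values were seen. Promoters are RefSeq sequences of GRCm38.p6, on which motifs were sought on both strands. Some marker genes are not reported here.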

Additional observations from a re-analysis of the deposited data

Results flagged for a closer look

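In 6 of 27 sets of values of 1 gene in 1 group, the highest or lowest library lay further from the rest than Dixon's 95% limit, with the gap given as a share of the group's range. Chance flags about 1 in 20 groups of normally spread values, a rate that need not hold for CPM with values at 0. Rax in dorsal control 2 stood at 2.79 CPM with the other controls at 0 (gap 1 of the range); with the others all at 0, any value above 0 gives this gap, so it carries no weight. Rax in ventral mutant 2 stood at 19.98 CPM (gap 0.995). Six6 in dorsal mutant 2 stood at 139 CPM against 20.7 to 48.0 CPM in the other mutants (gap 0.769). Six3 in dorsal mutant 5 was low, at 58.1 CPM (gap 0.719). Lhx2 in ventral mutant 4 stood at 182 CPM against 94.2 to 117 CPM (gap 0.743). Fzd5 in axon mutant 3 stood at 115 CPM against 0 to 29.7 CPM (gap 0.742).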

How the results depend on the processing

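No member was called by edgeR, and among the alternatives DESeq2 alone called any, 1 (Rax, the dorsal minus axon interaction). Among the refitted fold changes of members, 649 kept their sign and 49 turned; the cause was not tested. Ventral Lhx2 (0.13) was -0.27 without the batch term, -0.22 in batch B, -0.060 in a fit of all 27 libraries and -0.24 to 0.44 without 1 library; ventral Fzd5 without 1 library ran from -0.69 to 0.11. Axon Six3 (-0.31) was 0.48 by voom, 0.55 without batch, 0.78 with the replicate block and batch, 0.43 over all 27 libraries and -1.49 to 0.92 without 1 library. Between genotypes of a region the replicate block joins a control and a mutant embryo by number alone. They are different embryos, some in different batches, so this block stands for no pairing in the design. Axon Six6 (0.09) was -0.24 without batch, -0.19 over all 27 libraries and -0.59 to 0.30 without 1 library. Axon Lhx2 (0.42) was -0.45 by voom, -0.17 without batch, -0.93 in batch B and -0.96 to 2.50 without 1 library. Axon Fzd5 (0.12) was -0.24 by voom, -0.40 with the newer edgeR method, -0.56 without batch, -1.30 in batch B, -1.75 with the replicate block and batch, -0.84 over all 27 libraries and -1.33 to 4.60 without 1 library. In controls, dorsal minus axon was -0.085 to 1.00 for Six3 without 1 library and 0.50 for Fzd5 by voom, and ventral minus axon for Fzd5 (-0.10) was 2.37 by voom, 0.87 with the replicate block, 0.40 with batch and -0.52 to 0.64 without 1 library. For the interactions, dorsal minus ventral Fzd5 (-0.51) was 0.29 with the replicate block and -1.46 to 0.63 without 1 library, and dorsal minus axon was 1.55 for Six6 by voom, -0.22 to 0.92 for Six3 and -0.86 to 1.79 for Fzd5 without 1 library. Within embryos, dorsal minus ventral Six3 ran from -0.38 to 0.12 without 1 embryo.

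Calls over all genes rested on the tool: edgeR called 0 to 11 genes in the 9 comparisons, DESeq2 243 to 1485 (532 in the dorsal, 342 in the ventral and 1238 in the axon piece), voom 6 to 48, the newer edgeR method 0 to 69, edgeR without a filter 8 to 101 and a fit of all 27 libraries 0 to 73. The replicate block changed no call of a member. At 0.0294 to 0.0917 CPM a count, depth bears most on Rax, which was at or under 3 counts in every library of 3 groups. Of the exact tests, 13 alternatives took a p to 0.05 or past it, for dorsal Six3 between genotypes and Lhx2 within embryos.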
